A study of Mus musculus with 9 samples.

Results

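This account covers genes of the p53 pathway, named in a list of 34 symbols that holds regulators of p53 and genes p53 is known to switch on, in mouse cells that the labels name HL-1. Of the 34, 30 had a transcript cluster (the array probes grouped for 1 transcript) annotated with that symbol alone, out of 30050 genes measured. Gls2, Fdxr and Trp53 itself were not analysed here, and the cluster of Pidd1 carried a pair of symbols and is described apart from the 30. RNA was measured on 9 Affymetrix arrays, 3 in each of 3 groups. DOX_IFNg cells received 0.3 µM doxorubicin with 20 ng/ml interferon gamma, DOX cells 0.3 µM doxorubicin, and Con cells phosphate-buffered saline. HL-1 is an immortalized line derived from mouse atrial cardiomyocytes, grown here in medium with serum, so all groups share 1 line, and neither the length of treatment nor the origin of the replicates (separate cultures or not) was given in the sources used here. The p-values therefore weigh differences against array-to-array spread that could be purely technical.

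The protein p53 is a transcription factor that is kept scarce in unstressed cells by the ubiquitin ligase Mdm2 and its partner Mdm4. DNA breaks, such as those left when doxorubicin traps topoisomerase II on DNA, activate kinases that phosphorylate p53, which then escapes degradation and binds response elements built from a repeated 10-letter unit, the p53 decamer. Its targets halt the cell cycle, repair DNA, alter metabolism and death signalling, and include Mdm2 itself, which closes a feedback loop. In heart muscle, p53 activation is a well-known part of the response to anthracyclines. Interferon gamma, a cytokine, is known to raise several genes of this list in other cells, among them Pml and Fas.

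The promoter sequences of the genes show where the decamer lies close to a transcription start. Windows of 250 bases before to 50 bases after each start were taken from RefSeq (build GRCm38.p6) and were present for 23 of the 30 genes. The p53 decamer, searched with no mismatch (it reads alike on both strands, and no other motif was searched), was found in the window of 9 of these 23 genes, which is 39.1%, against 9.55% of all 27025 genes with a window. A pair of decamers separated by 0 to 13 letters, with at most 1 mismatch in 20 letters, was found in 4 of the 23 (Ccng1, Cdkn1a, Pml and Polk, 17.4%) and in 1.24% of all genes. The list was drawn from known targets, so these shares describe it and were not tested. The 250 bases before the start are shown, 5′ to 3′ on the gene's strand with each exact decamer in capitals, for Plk2, which had the highest rise of the list, Ccng1, Mdm2 and the more upstream start of Cdkn1a.
Plk2, chr13:110394794-110395043, plus strand: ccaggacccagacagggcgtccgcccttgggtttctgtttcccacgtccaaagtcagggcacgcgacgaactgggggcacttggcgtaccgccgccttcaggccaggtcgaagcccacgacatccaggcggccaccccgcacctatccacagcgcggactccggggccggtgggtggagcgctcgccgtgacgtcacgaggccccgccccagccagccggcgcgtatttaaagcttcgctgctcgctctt
Ccng1, chr11:40755287-40755536, minus strand: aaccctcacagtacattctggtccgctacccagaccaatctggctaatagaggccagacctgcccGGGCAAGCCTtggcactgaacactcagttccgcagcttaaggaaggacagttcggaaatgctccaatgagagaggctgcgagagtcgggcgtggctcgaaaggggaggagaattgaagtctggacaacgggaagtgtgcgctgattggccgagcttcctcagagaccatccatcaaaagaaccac
Mdm2, chr10:117710759-117711008, minus strand: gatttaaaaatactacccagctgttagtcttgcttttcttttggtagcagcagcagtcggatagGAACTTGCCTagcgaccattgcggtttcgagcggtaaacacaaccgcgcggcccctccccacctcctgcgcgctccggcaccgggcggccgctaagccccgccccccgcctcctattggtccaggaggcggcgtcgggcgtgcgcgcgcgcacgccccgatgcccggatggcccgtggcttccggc
Cdkn1a, chr17:29090729-29090978, plus strand: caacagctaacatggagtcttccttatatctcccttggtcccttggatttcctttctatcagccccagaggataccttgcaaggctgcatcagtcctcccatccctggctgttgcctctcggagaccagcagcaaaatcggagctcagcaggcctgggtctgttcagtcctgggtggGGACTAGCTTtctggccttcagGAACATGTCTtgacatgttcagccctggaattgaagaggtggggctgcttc

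Counting from the start, with bases before it negative, the decamer of Ccng1 began at -185 and that of Mdm2 at -186. The Ccng1 window also held a pair with 1 mismatch and no letters between its decamers. Cdkn1a held 2 exact decamers separated by 12 letters, beginning at -73 and -51 from that start, and its further start downstream had none. Plk2 held none in its window, which says only that these letters are absent from that window. The decamers of the other genes are shown with 10 bases on each side, in capitals as before.
Ei24, chr9:36797325-36797354, minus strand: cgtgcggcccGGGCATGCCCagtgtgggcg
Ppm1d, chr11:85311112-85311141, plus strand: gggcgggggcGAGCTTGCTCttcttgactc
Sesn1, chr10:41887256-41887285, plus strand: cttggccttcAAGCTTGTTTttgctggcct
Pml, chr9:58249911-58249940, minus strand: cccgcatgccGGGCTTGTTTacttgcttgt
Polk, chr13:96519399-96519428, minus strand: catgtagcttGAACTAGCCTcaaacttatt
Aen, chr7:78895927-78895956, plus strand: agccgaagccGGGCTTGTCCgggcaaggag
The sites of Ei24, Ppm1d, Sesn1, Pml and Polk began at -10, -132, -173, -144 and -231 from a start, and that of Aen at -121 from one of its starts and at 11 from the other. A decamer lay in the window of 4 of the 13 genes with a window that rose with doxorubicin alone (Ccng1, Ei24, Mdm2 and Ppm1d, 30.8%) and of 5 of the 10 that did not pass the test there (50%). A match describes letters in a window and says nothing of binding.

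Doxorubicin-treated cells carried more RNA of 16 of the 30 genes than control cells at the threshold used, and none of the 30 was called lower. The kinase gene Plk2 rose 6.54-fold, the detoxifying enzyme Ephx1 5.35-fold, the receptor Eda2r 4.40-fold and the cyclin Ccng1 3.25-fold. Of all 30050 genes, 8.06% were called higher and 7.53% lower in DOX minus Con, a call being an adjusted p under 0.05 in limma. The median log2 difference was 0.39 over the 30 genes and -0.01 over all genes. In DOX_IFNg minus Con, 17 of the 30 were called higher and none lower, where 8.01% of all genes were called higher and 9.41% lower, with medians of 0.32 and -0.02. A total of 15 genes were called in both comparisons, which share the Con arrays. In each comparison, 8 genes were called at 2-fold or more. The matching shares of all genes were not computed for these counts. Without overlap of arrays, 20 genes lay above and 1 below Con in DOX_IFNg, against 14.5% and 18.5% of all genes, and 21 lay above and 1 below Con in DOX, against 15.7% and 17.2% of all genes.

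**Figure D1:**
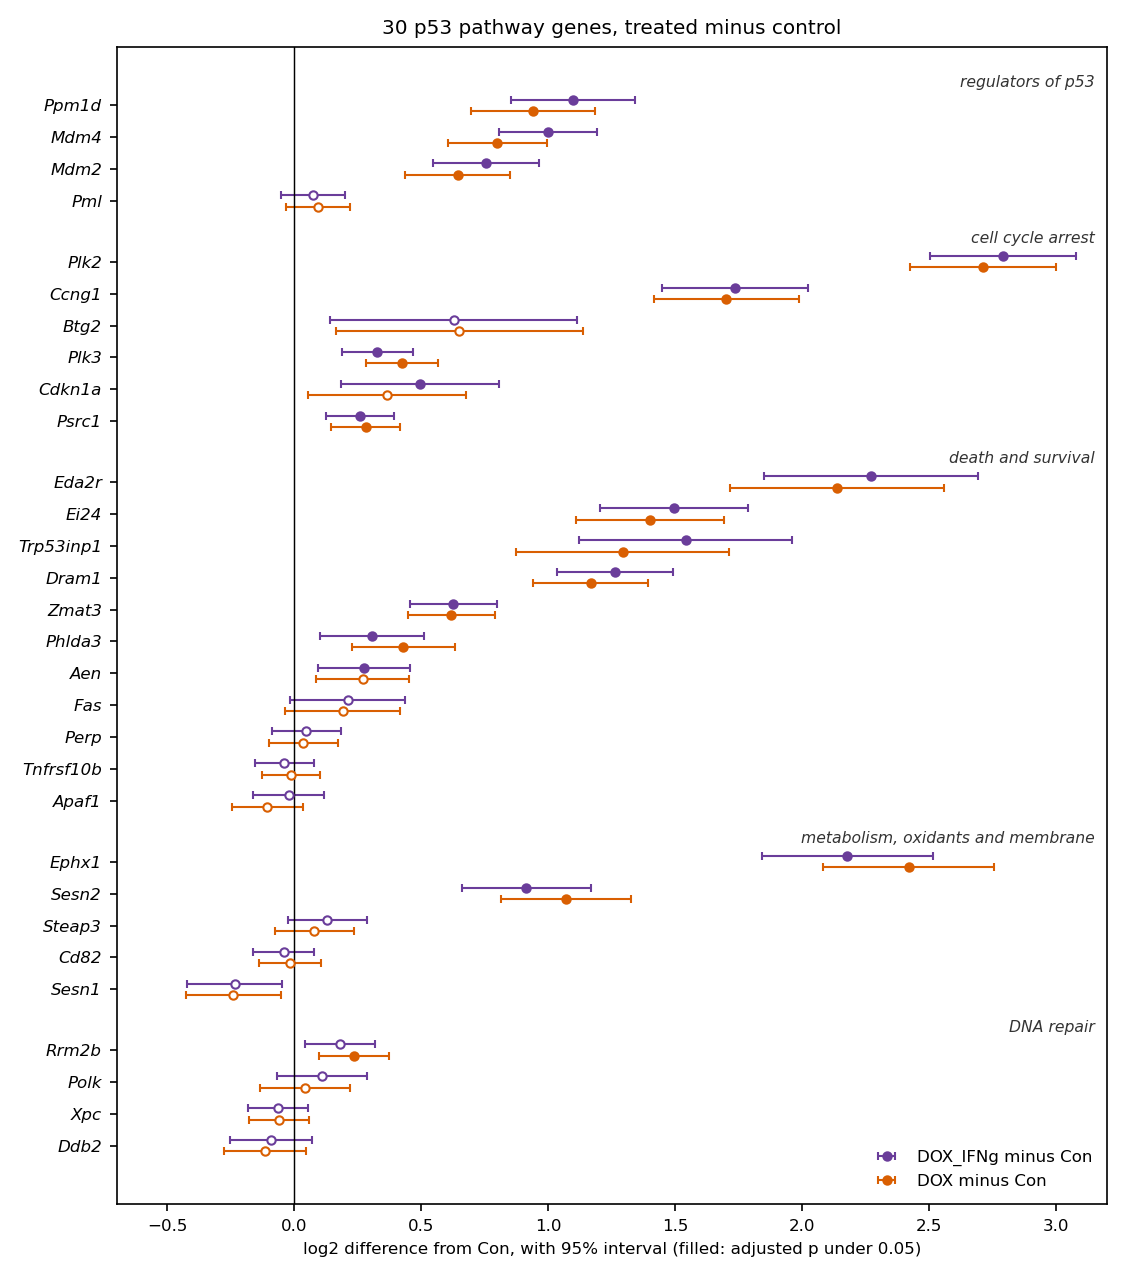
Log2 difference from Con (x axis) of the 30 genes, grouped by role, for DOX_IFNg minus Con (upper point of each gene) and DOX minus Con (lower point), with 95% intervals and filled points where the adjusted p was under 0.05. Plk2, Ephx1 and Eda2r lie above 2 in both comparisons, while the 4 DNA repair genes among the 30 lie close to 0.

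Some features of the arrays and cells move with the groups. Of 10 cardiomyocyte markers, 3 lay above the receptor limit (log2 4.69, the 95th percentile of 1714 olfactory and vomeronasal receptor genes, taken as a level of dim probes), namely Tnnt2, Nkx2-5 and Actn2, while Myh6, Myl7, Nppa and Gata4 lay under it on average. Fibroblast markers lay above it in 4 of 7 cases and skeletal myoblast markers in 3 of 6. In Con, Myh6, Myl7 and Nppa averaged 4.29, 4.12 and 3.97 and Tnnt2 7.94, while Myog averaged 8.18, Myod1 6.03 and Col1a1 17.8. Other myoblast and fibroblast markers were dim in Con, such as Myf5 (3.89), Pax7 (3.99) and Dcn (3.79). These levels of the atrial markers sit poorly with the name HL-1, which comes from the labels, and the identity of the cells was not tested. The summed log2 level of the fibroblast list was 57.4 to 57.9 in DOX_IFNg, 57.4 to 57.5 in DOX and 60.5 to 62.0 in Con. The myoblast list summed to 30.6 to 31.1 in DOX_IFNg, 31.1 to 31.9 in DOX and 34.6 to 35.3 in Con. The cardiomyocyte list summed to 46.1 to 46.6 in DOX_IFNg, 46.2 to 46.6 in DOX and 47.5 to 47.6 in Con. The smooth muscle list, with 3 of 5 above the limit, summed to 40.9 to 41.2 in DOX_IFNg, 41.3 to 41.9 in DOX and 43.3 to 43.7 in Con. The sums of these 4 lists were lower on every treated array than on any Con array, but their members did not all go that way. In DOX minus Con, 1 of the 10 cardiomyocyte markers was called lower (Tnnt2, -1.24) and 0 higher, and the median of the list was 0.01. Of the 6 myoblast markers Myog (-3.42) and Acta1 (-0.70) were called lower and Myod1 (0.76) higher. Of the 7 fibroblast markers 4 were called lower (Col1a1, Col1a2, Col3a1 and Lum) and Thy1 (0.21) higher, and of the 5 smooth muscle markers Acta2 (-0.47) and Cnn1 (-1.29) were called lower. Their part in the results was not tested. Endothelial markers, 0 of 7 above the limit, summed to 27.6 to 27.7 in DOX_IFNg, 27.5 to 28.1 in DOX and 27.4 to 28.1 in Con, and immune markers, 1 of 8 above it, to 32.5 to 33.2 in DOX_IFNg, 32.7 to 33.3 in DOX and 32.8 to 33.2 in Con, with overlap. In such bulk RNA, fewer cells of a type and less RNA per cell cannot be told apart. Con replicate 1, all DOX arrays and DOX_IFNg replicates 1 and 2 shared a maximum value of 19.9 and 82 to 186 identical values per pair, against 1 to 17 in other pairs. With this grouping as a block, 15 of the 30 genes were called higher in DOX minus Con and 16 in DOX_IFNg minus Con, where 6.34% and 7.54% of all genes were. A fit of the arrays with the shared maximum, in which Con is 1 array assumed to vary like the other groups, called 12 of the 30 in DOX minus Con and 10 in DOX_IFNg minus Con, and calls over all genes dropped too, to 3.60% and 2.86%. Over all genes, 51.7% of calls in DOX minus Con and 46% in DOX_IFNg minus Con were higher, against 61.7% and 57.5% after quantile normalization.

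Of the 4 measured regulators of p53, 3 rose with doxorubicin, all of them proteins that hold p53 in check. Mdm2, the ubiquitin ligase, lay at log2 5.97, 5.71 and 5.96 in DOX_IFNg and 5.61, 5.84 and 5.86 in DOX, against 5.17, 5.09 and 5.13 in Con. The treated arrays lay above every Con array, with a log2 difference of 0.64 (SE 0.09, adjusted p = 0.00168) in DOX minus Con and of 0.75 in DOX_IFNg minus Con (adjusted p = 0.000680). In the fit with 1 Con array the differences were 0.61 and 0.68 and missed the threshold (adjusted p = 0.0749 and 0.0685). Mdm4, a relative of Mdm2 that binds p53 and blocks its activity, lay at 6.93, 6.88 and 6.86 in DOX_IFNg and 6.65, 6.73 and 6.70 in DOX, against 6.04, 5.95 and 5.69 in Con. Its groups did not overlap anywhere, with DOX_IFNg highest, and it rose by 0.80 in DOX (1.74-fold, SE 0.08, adjusted p = 0.000371) and by 1.0 in DOX_IFNg (adjusted p = 0.000107). Ppm1d, a phosphatase that reverses damage signalling at p53 and its kinases, lay at 6.20, 6.43 and 6.38 in DOX_IFNg and 6.26, 6.33 and 5.96 in DOX, against 5.16, 5.34 and 5.23 in Con. It rose 1.92-fold in DOX (log2 0.94, SE 0.11, adjusted p = 0.000543) and 2.14-fold in DOX_IFNg, and DOX replicate 3 was the lowest of the 6 treated arrays. Pml, the organizer of nuclear bodies that hold p53 cofactors, was dim, at 4.05, 4.07 and 4.13 in DOX_IFNg and 4.02, 4.20 and 4.10 in DOX, against 4.01, 4.02 and 4.01 in Con. The DOX arrays lay above Con by 0.09 on average, which did not pass (adjusted p = 0.334), and the DOX_IFNg arrays by 0.07 (adjusted p = 0.443).

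Among the 6 genes of cell cycle arrest, 4 rose in DOX and 5 in DOX_IFNg. Plk2, a polo-like kinase induced by stress, lay at 12.09, 12.29 and 12.25 in DOX_IFNg and 12.28, 12.29 and 11.82 in DOX, against 9.41, 9.34 and 9.51 in Con. DOX replicate 3 was the lowest treated array and still lay far above Con, and the rise was the steepest of the list, with a log2 difference of 2.71 (SE 0.13, adjusted p = 9.05e-06) in DOX minus Con and one of 2.79 (SE 0.13, adjusted p = 7.57e-06) in DOX_IFNg minus Con. Plk3, a related kinase, lay at 5.29, 5.45 and 5.39 in DOX_IFNg and 5.51, 5.53 and 5.38 in DOX, against 5.04, 5.06 and 5.05 in Con. Its Con arrays were nearly level and its rise was small, 0.42 in DOX (SE 0.06, adjusted p = 0.00196) and 0.33 in DOX_IFNg (adjusted p = 0.00695). In the fit with 1 Con array its differences were 0.43 and 0.33, and neither passed (adjusted p = 0.0735 and 0.164). Ccng1, a cyclin that recruits a phosphatase to Mdm2 and whose promoter is printed above with its decamer, lay at 7.37, 7.73 and 7.73 in DOX_IFNg and 7.61, 7.75 and 7.36 in DOX, against 5.90, 5.95 and 5.77 in Con. It was 3.25-fold higher in DOX (log2 1.70, SE 0.13, adjusted p = 5.46e-05) and 3.33-fold higher in DOX_IFNg, with no overlap with Con.

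Cdkn1a encodes p21, the inhibitor of cyclin-dependent kinases through which p53 stops the cell cycle. It lay at 5.91, 6.07 and 6.52 in DOX_IFNg and 6.11, 5.95 and 6.05 in DOX, against 5.66, 5.66 and 5.68 in Con, so every treated array exceeded the level Con values, with DOX_IFNg replicate 3 well above the others. The difference was 0.37 in DOX (SE 0.14), which did not pass (adjusted p = 0.118), and 0.50 in DOX_IFNg, which did (adjusted p = 0.0383). Between the treated groups, DOX_IFNg minus DOX, Cdkn1a differed by 0.13 (adjusted p = 0.979). The DOX difference was called without DOX_IFNg replicate 3 (adjusted p = 0.00844), with the array grouping as a block (log2 0.54, adjusted p = 0.0401) and in a fit of the DOX and Con arrays alone. The DOX_IFNg call was lost without any single array other than DOX_IFNg replicate 1 or 3 (adjusted p up to 0.0982). A fit of the DOX_IFNg and Con arrays alone lost it too, while the block kept it (log2 0.59, adjusted p = 0.0134). In the fit with 1 Con array the DOX_IFNg difference was 0.32. Btg2, an antiproliferative factor that promotes messenger RNA decay, lay at 7.98, 8.20 and 8.73 in DOX_IFNg and 8.73, 8.16 and 8.08 in DOX, against 7.71, 7.66 and 7.66 in Con. It was higher on each treated array but spread widely, and its differences of 0.65 (adjusted p = 0.0799) and 0.63 (adjusted p = 0.0822) did not pass. It was called in DOX minus Con without DOX_IFNg replicate 3 (adjusted p = 0.0357) and in DOX_IFNg minus Con without DOX replicate 1 (adjusted p = 0.0491). Psrc1, a microtubule-associated protein, rose by 0.28 in DOX (adjusted p = 0.0125) and by 0.26 in DOX_IFNg (adjusted p = 0.0175). The DOX_IFNg call was lost when Con replicate 3 or DOX_IFNg replicate 1 was dropped (adjusted p as high as 0.0634). With the array grouping as a block its DOX difference was 0.27 and not called (adjusted p = 0.0604), and in the fit with 1 Con array neither was, at 0.28 in DOX and 0.26 in DOX_IFNg (adjusted p = 0.148 and 0.195).

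**Figure D2:**
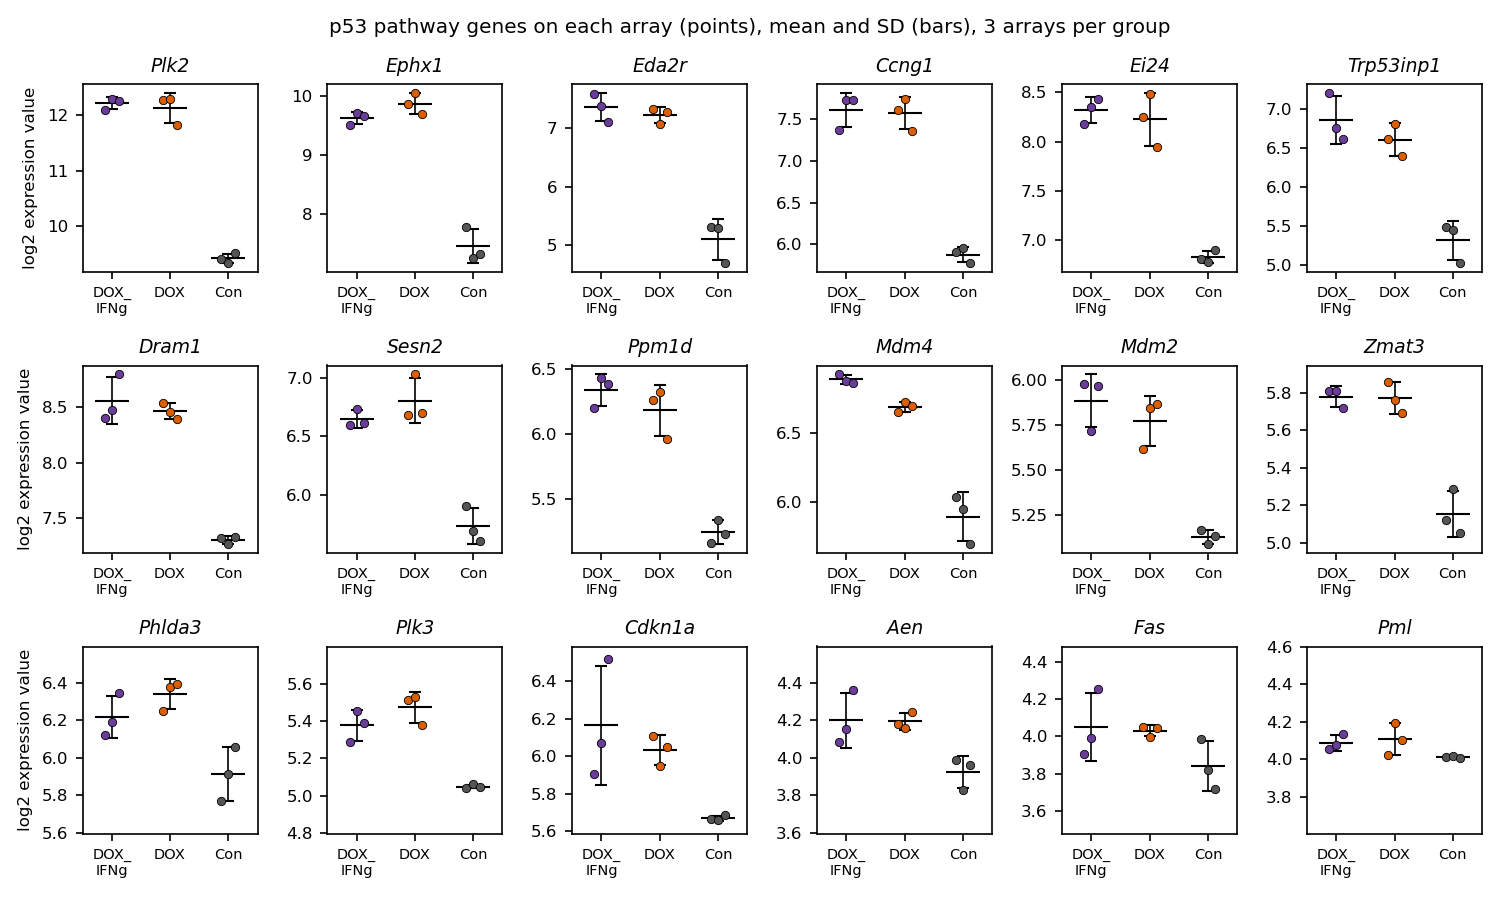
Log2 expression value (y axis, a scale of its own for each gene) on each array of DOX_IFNg, DOX and Con for 18 of the genes; points are arrays, the wide bar is the mean and the whiskers the SD of 3 arrays. In Plk2, Ephx1, Eda2r and Ccng1 the 6 treated arrays lie far above every Con array, and in Cdkn1a DOX_IFNg replicate 3 stands above the rest.

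Of the 11 genes of death and survival signalling, 6 rose in DOX and 7 in DOX_IFNg. Eda2r, a receptor of the tumour necrosis factor family for ectodysplasin A2, lay at 7.60, 7.39 and 7.11 in DOX_IFNg and 7.33, 7.07 and 7.28 in DOX, against 5.31, 5.29 and 4.68 in Con. Con replicate 3 was lower than the other Con arrays, and the rise was 2.14 (SE 0.18, 4.40-fold, adjusted p = 0.000127) in DOX and 2.27 in DOX_IFNg. Ei24, a membrane protein of the endoplasmic reticulum with a part in autophagy, lay at 8.18, 8.35 and 8.43 in DOX_IFNg and 8.25, 8.48 and 7.95 in DOX, against 6.81, 6.78 and 6.90 in Con. Its groups of treated arrays overlapped each other and not Con, and it rose 2.64-fold in DOX (SE 0.13 on the log2 scale, adjusted p = 0.000160) and 2.82-fold in DOX_IFNg. Trp53inp1, a stress protein that binds p53 and takes part in autophagy, lay at 7.20, 6.75 and 6.61 in DOX_IFNg and 6.61, 6.80 and 6.39 in DOX, against 5.47, 5.44 and 5.02 in Con. It had a log2 difference of 1.29 (SE 0.18, adjusted p = 0.00170) in DOX minus Con and of 1.54 in DOX_IFNg minus Con, with DOX_IFNg replicate 1 highest. Dram1, a lysosomal membrane protein that promotes autophagy, lay at 8.40, 8.48 and 8.80 in DOX_IFNg and 8.54, 8.46 and 8.40 in DOX, against 7.32, 7.26 and 7.32 in Con. Every treated array was more than 1 log2 unit above every Con array, and the fold was 2.25-fold in DOX (adjusted p = 0.000117) and 2.40-fold in DOX_IFNg.

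Zmat3, an RNA-binding regulator of splicing, lay at 5.81, 5.81 and 5.72 in DOX_IFNg and 5.86, 5.76 and 5.69 in DOX, against 5.12, 5.29 and 5.05 in Con. It rose by 0.62 in DOX (SE 0.07, adjusted p = 0.000734) and by 0.63 in DOX_IFNg. Phlda3, a repressor of the survival kinase Akt, lay at 6.12, 6.19 and 6.34 in DOX_IFNg and 6.25, 6.38 and 6.40 in DOX, against 5.77, 5.91 and 6.05 in Con. Its rise of 0.43 in DOX (adjusted p = 0.0117) was called in each fit that left out 1 array. The rise of 0.31 in DOX_IFNg (adjusted p = 0.0480) was lost in 8 of the 9 fits that left out 1 array, the exception being Con replicate 3 (adjusted p as high as 0.136). That call was also lost in a fit of the DOX_IFNg and Con arrays alone, and in a fit whose prior variance followed intensity. In the fit with 1 Con array the DOX_IFNg difference was 0.39. Aen, a nuclease that enhances apoptosis, was dim, at 4.08, 4.15 and 4.36 in DOX_IFNg and 4.18, 4.16 and 4.24 in DOX, against 3.99, 3.83 and 3.96 in Con. All treated arrays lay above Con, but 0.27 in DOX did not pass (adjusted p = 0.0554), and 0.27 in DOX_IFNg passed narrowly (adjusted p = 0.0479). Between the treated groups, DOX_IFNg minus DOX, Aen differed by 0.005 (adjusted p = 0.999). The DOX_IFNg call was lost without any single array other than DOX_IFNg replicate 1 (adjusted p up to 0.144). It was also lost with the array grouping as a block (log2 0.30, adjusted p = 0.0534) and in a fit of the DOX_IFNg and Con arrays alone. In the fit with 1 Con array the DOX_IFNg difference was 0.13. Leaving out DOX_IFNg replicate 1 or 3 brought the DOX difference under the threshold (adjusted p down to 0.0231). Fas, the death receptor, was dim too, at 3.90, 3.99 and 4.25 in DOX_IFNg and 4.05, 4.0 and 4.04 in DOX, against 3.98, 3.82 and 3.72 in Con. The DOX_IFNg and Con arrays overlapped, and differences of 0.21 in DOX_IFNg (adjusted p = 0.207) and 0.19 in DOX (adjusted p = 0.270) did not pass. Tnfrsf10b, the receptor of the death ligand TRAIL, differed by -0.01 in DOX (95% interval -0.13 to 0.10), Perp, a membrane protein of desmosomes, by 0.03 (-0.10 to 0.17), and Apaf1, the scaffold of the apoptosome, by -0.11 (-0.25 to 0.03), with adjusted p between 0.321 and 0.915. Tnfrsf10b, Perp and Fas lay under the receptor limit.

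The cluster annotated Pidd1 and Lrdd, which RefSeq gives as an older symbol of the same gene, measures a scaffold protein that activates caspases after DNA damage. It was left out of the 30 genes because of its pair of symbols and was added as an alternative after the data were seen. It lay at 5.79, 6.07 and 6.15 in DOX_IFNg and 6.28, 6.26 and 6.05 in DOX, against 4.95, 4.93 and 4.92 in Con. In a fit of 30703 genes that took in such clusters, Pidd1 rose 2.40-fold in DOX (log2 1.27, SE 0.10, adjusted p = 8.05e-05) and 2.10-fold in DOX_IFNg (log2 1.07, adjusted p = 0.000176).

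Of the 5 genes of metabolism, oxidant defence and membranes, 2 rose and 3 did not pass in both comparisons with Con. Ephx1, the microsomal epoxide hydrolase that detoxifies reactive epoxides, lay at 9.52, 9.72 and 9.66 in DOX_IFNg and 9.87, 10.06 and 9.70 in DOX, against 7.79, 7.25 and 7.33 in Con. Con replicate 1 was the highest control and lay well below the lowest treated array, and the rise was 2.42 (SE 0.15, adjusted p = 2.46e-05) in DOX and 2.18 (adjusted p = 3.54e-05) in DOX_IFNg. Sesn2, a sestrin, which dampens growth signalling through mTORC1 when cells are stressed, lay at 6.60, 6.73 and 6.62 in DOX_IFNg and 6.68, 7.03 and 6.70 in DOX, against 5.91, 5.69 and 5.61 in Con. It rose 2.10-fold in DOX (log2 1.07, SE 0.11, adjusted p = 0.000340) and 1.88-fold in DOX_IFNg, where the fit with 1 Con array gave 0.76 on the log2 scale and no call (adjusted p = 0.0630). Its relative Sesn1, whose decamer is printed above, was dim and lay at 4.16, 4.28 and 4.23 in DOX_IFNg and 4.29, 4.17 and 4.19 in DOX, against 4.33, 4.41 and 4.63 in Con. It was the single gene of the 30 whose treated arrays all lay below Con, with differences of -0.24 in DOX (adjusted p = 0.0908) and -0.23 in DOX_IFNg (adjusted p = 0.0904), and it was called lower in both comparisons without Con replicate 1 (adjusted p = 0.0474 and 0.0451). Steap3, a reductase of iron in endosomes, differed by 0.08 in DOX (95% interval -0.08 to 0.23), and Cd82, a tetraspanin of the cell surface, by -0.02 (-0.14 to 0.10). Steap3 was dim and lay under the receptor limit averaged over all arrays.

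Of the 4 DNA repair genes, 1 rose in DOX and 0 in DOX_IFNg. Rrm2b, the p53-inducible small subunit of ribonucleotide reductase that supplies nucleotides for repair, lay at 5.24, 5.22 and 5.11 in DOX_IFNg and 5.28, 5.24 and 5.22 in DOX, against 5.10, 4.94 and 5.0 in Con. The treated arrays all lay above Con by a narrow margin, and 0.23 in DOX was called (SE 0.06, adjusted p = 0.0314) while 0.18 in DOX_IFNg was not (adjusted p = 0.0797). The difference between the treated groups, DOX_IFNg minus DOX, was -0.05 (adjusted p = 0.979). The DOX call was lost without Con replicate 2 or 3, any single DOX array or DOX_IFNg replicate 2 (adjusted p up to 0.108), and with the array grouping as a block it was 0.15 and not called (adjusted p = 0.151). It was not called in the fit of the DOX and Con arrays alone or in that with 1 Con array either. Without Con replicate 1 Rrm2b was called in DOX_IFNg too (adjusted p = 0.0486). Ddb2 and Xpc, which find damaged bases for nucleotide excision repair, differed by -0.12 (95% interval -0.28 to 0.05) and -0.06 (-0.18 to 0.06) in DOX. Polk, a polymerase that copies past lesions, differed by 0.04 (-0.13 to 0.22) and lay under the receptor limit. None of these passed the test.

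Level and call went together in the list. Of the 30 genes, 22 lay above the receptor limit averaged over all arrays, and the 16 called in DOX minus Con were all among them, while 0 of the 8 dimmer genes were called. Among all genes, 17.4% of those above the limit and 1.77% of those not above it were called higher. A gene that rises also raises its own average, so level and rise are not independent here. Fas had a second cluster, dimmer than the one used, which differed by 0.02 in DOX minus Con.

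By their labels, DOX_IFNg and DOX cells differ by interferon gamma alone. Their arrays differed as well, since every DOX array held the shared maximum and DOX_IFNg replicate 3 did not. In the 30 genes limma called no difference between these groups (0% of all 30050 genes were called in either direction). At an unadjusted p under 0.05 there was 1 of the 30 (Mdm4) and 1503 of all genes, which is 5%. The differences of the 30 genes in DOX_IFNg minus DOX ran from -0.24 (Ephx1) to 0.25 (Trp53inp1), with a median of 0.02 against -0.01 over all genes. Mdm4 was the single gene of the 30 whose arrays did not overlap between these groups, higher in DOX_IFNg by 0.20 (SE 0.08, adjusted p = 0.976), where 4.56% of all genes were higher and 6.69% lower without overlap. The 95% interval, not adjusted for the number of genes, lay within 0.5 of 0 for 26 of the 30 genes and for 25798 of all 30050. It was wider for Ephx1 (-0.58 to 0.09), Trp53inp1 (-0.17 to 0.67), Eda2r (-0.29 to 0.56) and Btg2 (-0.51 to 0.46). For Pml the interval was -0.15 to 0.11 and for Fas -0.21 to 0.25. For Cdkn1a it was -0.18 to 0.44, and for Mdm2 -0.10 to 0.32.

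**Figure D3:**
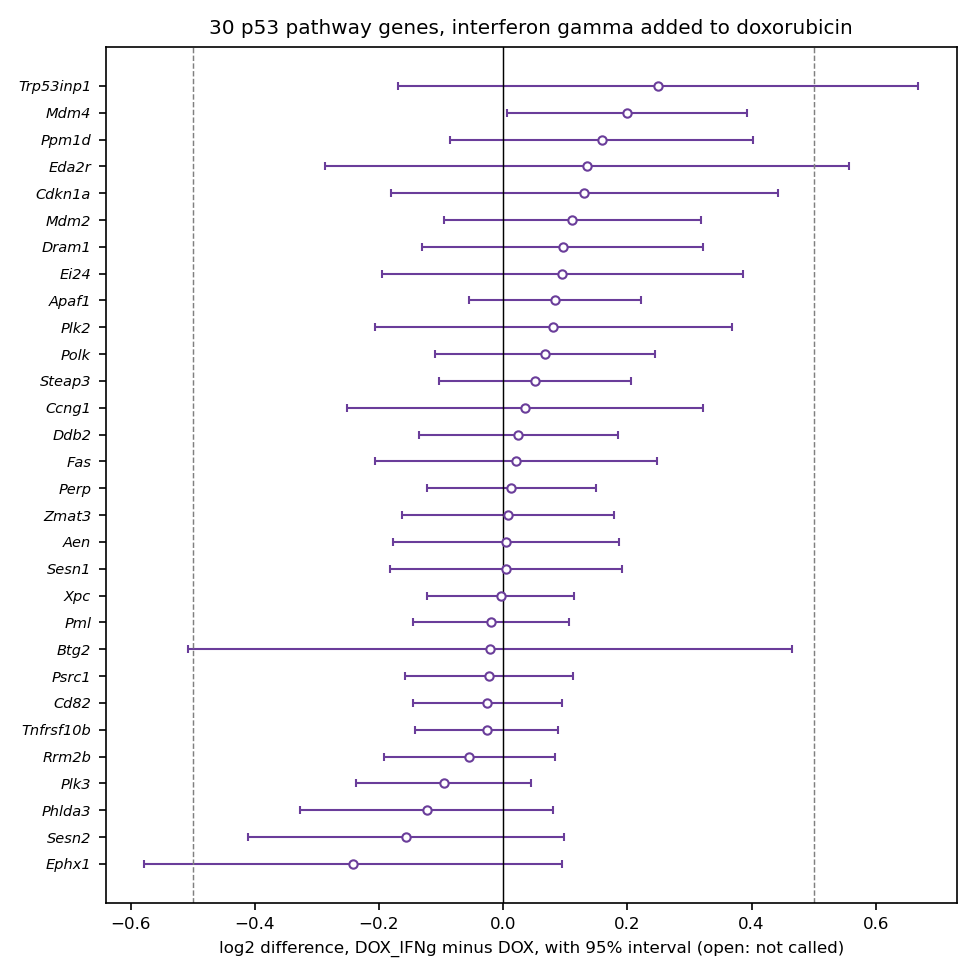
Log2 difference DOX_IFNg minus DOX (x axis) of the 30 genes with 95% intervals; open points were not called and dashed lines mark a difference of 0.5 either way. The points lie between -0.24 and 0.25, and the interval of Mdm4 alone leaves out 0.

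As a check of the cytokine treatment, known interferon targets were read in the same comparison. Gbp2, an interferon-inducible GTPase, lay at 6.02, 6.03 and 5.70 in DOX_IFNg and 5.55, 5.63 and 5.61 in DOX, against 4.72, 4.79 and 4.68 in Con, and the DOX_IFNg arrays lay above the DOX arrays by 0.32 (adjusted p = 0.966). Irf1, a transcription factor of the interferon response, lay under the receptor limit, at 3.99, 3.97 and 4.10 in DOX_IFNg and 3.88, 3.87 and 3.89 in DOX, against 3.84, 3.90 and 4.0 in Con, and was higher in DOX_IFNg than in DOX by 0.14 (adjusted p = 0.976). Neither overlapped between these groups and neither passed the test, while Gbp2 rose by 0.87 in DOX minus Con (adjusted p = 0.000299). The chemokine Cxcl10 (0.05) and the checkpoint ligand Cd274 (0.01) overlapped between DOX_IFNg and DOX and were dim. No group received interferon gamma alone, so its effect on p53 targets in the absence of doxorubicin was not analysed here.

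The called genes were also averaged on each array. The mean of the 16 genes called in DOX minus Con, set against their Con mean, was 1.15, 1.19 and 1.18 on the DOX_IFNg arrays and 1.15, 1.23 and 1.04 on the DOX arrays, against 0.06, 0.01 and -0.07 on the Con arrays. The genes were chosen by this contrast, so the gap to Con is a description. Outside the list, the profiles closest to this mean over the 9 arrays were those of App, the amyloid precursor (Pearson r 0.998), Osbpl6, an oxysterol-binding protein (0.997), Btbd10 (0.997), Xylb, a xylulokinase (0.997), and Ctns, the lysosomal cystine transporter (0.996). The points fall into treated and Con arrays, which these genes separate as well. Their differences in DOX minus Con were 1.34 for App, 1.37 for Osbpl6, 1.57 for Btbd10, 1.12 for Xylb and 1.43 for Ctns.

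A further list of 64 genes of the p53 pathway, of which 57 were measured, was compared in the same way. In DOX minus Con 18 rose, 12 fell and 27 did not pass, where 8.06% of all genes were called higher and 7.53% lower. In DOX_IFNg minus Con 20 rose, 12 fell and 25 did not pass, where 8.01% of all genes were called higher and 9.41% lower. None was called in DOX_IFNg minus DOX (5 of 57 at an unadjusted p under 0.05, against 5% of all genes). The medians were 0.08, 0.06 and -0.01, against -0.01, -0.02 and -0.01 over all genes. The 16 cell cycle genes split into 5 that rose, 7 that fell and 4 that did not pass in DOX. Gadd45g, a growth arrest and stress gene, lay at 11.64, 12.33 and 12.52 in DOX_IFNg and 12.84, 13.02 and 12.42 in DOX, against 8.68, 8.75 and 9.12 in Con, a rise of 3.91 in DOX (SE 0.24, adjusted p = 2.63e-05). Its relatives Gadd45b and Gadd45a rose by 1.55 (adjusted p = 0.00118) and 1.33 (adjusted p = 6.51e-06), but Gadd45b, at 1.40, was not called in the fit with 1 Con array (adjusted p = 0.0736). Ccne1, the cyclin of entry into DNA replication, lay at 5.57, 5.71 and 5.81 in DOX_IFNg and 5.68, 5.73 and 5.57 in DOX, against 7.83, 7.78 and 7.96 in Con and fell by 2.20 in DOX (SE 0.08, adjusted p = 5.57e-06). Its kinase Cdk2 fell by 1.45 (SE 0.09, adjusted p = 2.80e-05).

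Of the 13 genes of apoptosis on that list 4 rose and 9 did not pass in DOX. Of the 13 genes grouped as secreted and metabolic, 6 rose, 2 fell and 5 did not pass. The highest rise among them was that of Polh, a polymerase that copies past ultraviolet lesions. Like Polk above it acts on damaged DNA, so its place under this heading is a matter of grouping. Polh lay at 7.68, 7.95 and 7.76 in DOX_IFNg and 8.14, 7.95 and 7.54 in DOX, against 5.68, 5.69 and 5.87 in Con. It rose by 2.13 in DOX (SE 0.15, adjusted p = 3.78e-05). Its treated arrays all lay above Con, and DOX_IFNg and DOX overlapped. Among the 15 upstream kinases and cofactors 3 rose, 3 fell and 9 did not pass.

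**Figure D4:**
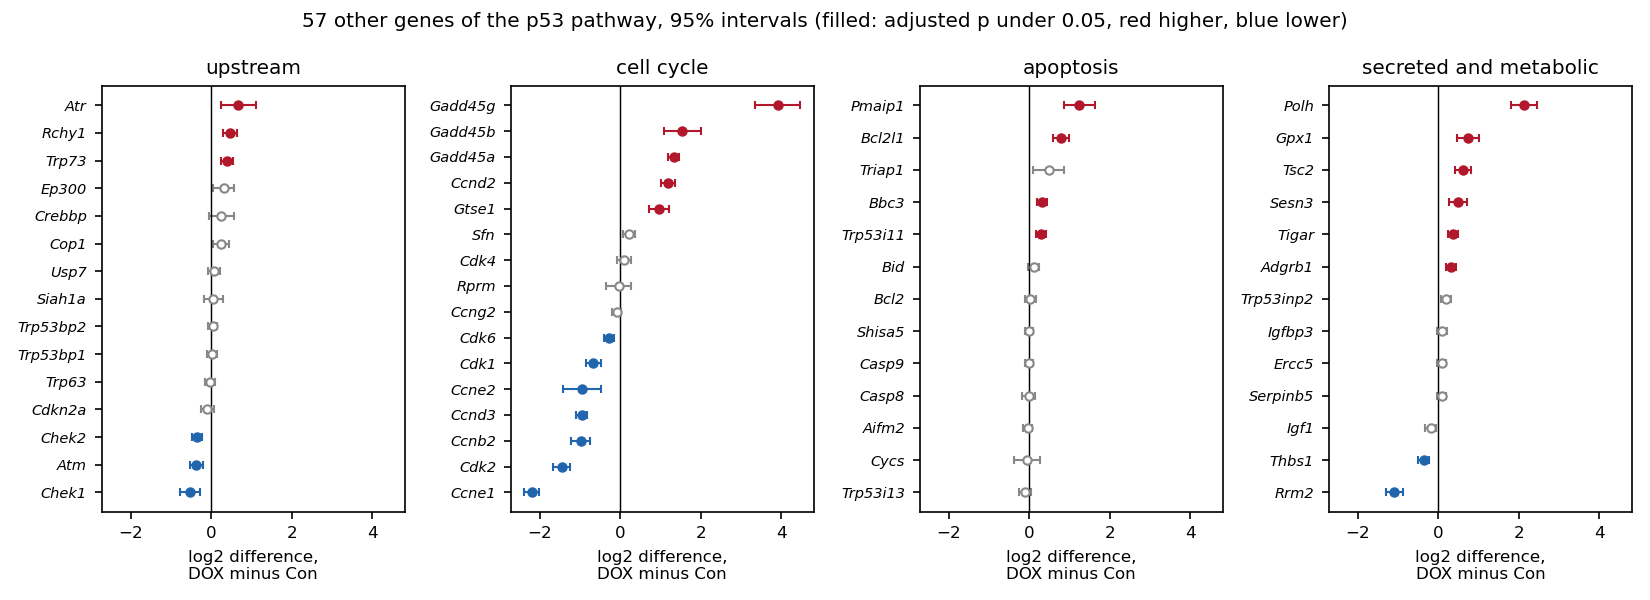
Log2 difference DOX minus Con (x axis) with 95% intervals for 57 further genes of the p53 pathway in 4 panels by role; filled points had an adjusted p under 0.05, red higher and blue lower, and open grey points were not called. Gadd45g and Polh stand farthest to the right, and Ccne1 and Cdk2 farthest to the left.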

How the data were processed

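Expression on 9 arrays of HL-1 cells was read from 1 table of 65527 transcript clusters, in which the authors deposited log2 expression values. Per the submitters' processing notes these were made with RMA, which corrects background, normalizes arrays and summarizes probes; neither version nor settings were given in the sources used here. That the scale is log2 was judged from the range of values, 2.29 to 19.9. RMA is known to compress differences of dim probes.

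The platform annotation gave 30376 clusters 1 symbol and 2117 several, and 33034 were not listed. Where a gene had several clusters, the one with the highest 9-array mean was kept, which left 30050 genes. Groups came from the labels. Group means were fitted to all 9 arrays with limma 3.58.1 (lmFit, eBayes) in R 4.3.3, two-sided, with 6 residual and 2.41 prior degrees of freedom and Benjamini-Hochberg adjustment over all genes of a comparison. Every adjusted p comes from limma, and a call is an adjusted p under 0.05, without a level filter. Precision is limited by the number of arrays; the 95% interval in DOX minus Con was ±0.19 for the median gene. The procedure was tested on simulated data.

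The genes, lists and tests were chosen with earlier results of these data known. Values on every array are given for Mdm2, Cdkn1a, Pml and Fas, for up to 14 called genes with the largest change in DOX minus Con, and for genes called in 1 of the comparisons with Con; Btg2 and Sesn1 were added after their values were seen. Up to 6 called genes of the further list are named by size, besides 4 interferon targets and the 5 profiles with the highest correlation. Gene symbols were matched to RefSeq tables of GRCm38.p6 for synonyms, gene types and promoters. No value column was left unused.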

Additional observations from a re-analysis of the deposited data

How the results depend on the processing

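The member counts were recomputed under 16 planned and 3 added alternatives, the added ones chosen after seeing the data. No listed gene was called in DOX_IFNg minus DOX in any of them, and over all genes 1 was called, lower, without Con replicate 3. Of 1686 recomputed values of the 30 genes, 1617 stayed on their side of the threshold, 50 lost the call and 19 gained one. The sign turned in 52, none of them called in either fit and none over 0.21 in size as reported. Leaving out single arrays, 15 to 19 genes were called higher in DOX minus Con and 14 to 15 in DOX_IFNg minus Con, and 0 to 1 lower in each, the 1 being Sesn1 without Con replicate 1. Of all 30050 genes, 1749 to 2381 were then called higher in DOX minus Con and 1682 to 2300 in DOX_IFNg minus Con. Called lower were 1580 to 2249 and 2049 to 2892 of all genes. Of the further list 16 to 19 and 16 to 20 were then called higher and 11 to 12 and 10 to 13 lower. With the arrays that hold the shared maximum alone, 10 of the 30 genes, against 17, and 10 further genes, against 20, were called higher in DOX_IFNg minus Con; that fit has fewer arrays and 1 Con array. With the replicate number as a block, 17 of the 30 genes were called higher in each comparison with Con. Of all 30050 genes, that fit called 2270 higher in DOX minus Con and 2293 in DOX_IFNg minus Con. Whether the numbers pair the arrays is not said in the labels, and 3 arrays per group are too few for correlations to settle it. With group means removed, same-numbered arrays correlated between -0.159 and 0.358, and other pairs between -0.400 and 0.278. The best correlation of 4 of 9 arrays was with an array of their own number. After quantile normalization Thbs1, at -0.37 in DOX minus Con, reversed to 0.0088 and lost its call; the cause was not tested. Dim genes limit what could be seen, since 8 of the 30 lay under the receptor limit.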

Other observations

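Some relatives of genes on the list are given side by side; they were singled out after their values were seen. Of the sestrins, Sesn2 rose by 1.07 in DOX minus Con and Sesn3 by 0.49 (adjusted p = 0.0113), a call lost without DOX replicate 1 (adjusted p = 0.0501) and with the array grouping as a block (log2 0.36, adjusted p = 0.0605), while Sesn1 did not pass at -0.24. Of the G-type cyclins, Ccng1 rose by 1.70, and Ccng2 differed by -0.10 (adjusted p = 0.224).

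Upstream of p53, the damage kinases Atm, Chek1 and Chek2 fell by 0.37, 0.54 and 0.36 in DOX minus Con. Atm was dim and lay under the receptor limit averaged over all arrays. Atr, which senses stalled replication, rose by 0.67 (adjusted p = 0.0488), a call lost in 7 of the 9 fits that left out 1 array (adjusted p up to 0.131) and with the array grouping as a block (log2 0.33, adjusted p = 0.150). Among apoptosis genes of the BCL2 family, Pmaip1, which encodes Noxa, rose by 1.24 and Bbc3, which encodes Puma, by 0.32. The survival gene Bcl2l1 rose by 0.79. Bid (0.10, adjusted p = 0.282) and Bcl2 (0.02, adjusted p = 0.876) did not pass. In the fit with 1 Con array the Bbc3 difference was 0.27 and was not called.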
